A study of Homo sapiens with 12 samples.

Results

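A set of 10 human genes that have near-identical copies elsewhere in the genome was followed through an m6A map of gastric carcinoma cells: BOLA2B and BOLA2, NOMO1, NOMO2 and NOMO3, RGPD1 and RGPD2, EIF3C and EIF3CL, and PI4KAP2. The set, of 18329 gene names in the deposited files, was chosen by large m6A differences between control and knockdown cells. Such differences were listed for 6 of the 10 genes under their own names. BOLA2, NOMO1, RGPD2 and EIF3CL had no m6A difference listed under their own names and are copies of genes that did. The m6A differences below are therefore a description and carry no test. The cells were HGC27, an established line from an undifferentiated gastric carcinoma. Control libraries, with titles that read WT and Con, were set against libraries from cells in which FTO was knocked down, with titles that read FTO-KO and sh. Each condition had 3 IP libraries, made from RNA fragments bound by an m6A antibody, and 3 input libraries, made from the fragments before enrichment. The titles number the knockdown libraries sh1 to sh3 and the controls Con1 to Con3, and the labels do not say whether sh1 to sh3 are separate hairpins or whether the libraries came from separate cultures. The tests of input levels measure the spread among libraries, and that spread may be technical. The p-values of peaks and of differential rows are the authors' own. What spread those measure is not given in the sources used here. The genotype label reads knockout, but some FTO RNA remained, and the cells are called knockdown as in the protocol.

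N6-methyladenosine (m6A) is a methyl mark on adenosine within messenger RNA. A writer complex sets it, FTO is one of the enzymes that remove it, and reader proteins bind it and affect splicing, translation and decay. Antibody enrichment finds it as a peak, a stretch of transcript with more IP than input reads. Genes copied by segmental duplication share long stretches of sequence, and a short read from such a stretch matches every copy. The levels and peaks of each copy below are therefore uncertain, and how reads matching several copies were placed is not given in the sources used here.

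FTO stood at 5.48 to 5.68 FPKM in the control inputs and at 0.765 to 0.830 FPKM in the knockdown inputs. Sequencing depth was unknown. Libraries of 1 condition had Pearson correlations of 0.992 to 0.995 over log2 values, against 0.977 to 0.982 between conditions. The table gives FPKM only beside differential m6A peaks, and of 19 cell type markers 3 had a level: COL1A1, a fibroblast collagen, at 138 to 176 FPKM, THY1 at 11.8 to 15.4 FPKM and MUC1, a mucin taken here as a gastric marker, at 1.19 to 1.61 FPKM. The epithelial markers KRT8, KRT18, KRT19, EPCAM and CDH1 had no listed level, so the cell type was checked by level only through COL1A1, THY1 and MUC1, of which the fibroblast gene COL1A1 was far the highest. KRT8, KRT19 and CDH1 had a peak in at least 1 list and KRT18 and EPCAM had none. Of the fibroblast and mesenchymal markers, COL1A1, COL3A1, THY1, DCN, VIM and ZEB1 had peaks (6 control and 1 knockdown for DCN) and CDH2 had none. Of the gastric markers, CLDN18 had 2 control peaks and 1 knockdown peak, MUC1 had 1 control peak, and TFF1 and GKN1 had none. The immune markers PTPRC, CD3E and CD68 had no peak.

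In all, 17 of 39492 control peaks and 15 of 28888 knockdown peaks were listed under a member's name or called on a member's gene model. A gene model is the annotated transcript set on which the peak was searched for, and the deposited lists give it beside the name of an annotated gene. The names and the models disagreed in 11 of the 32 member peaks. Over all peaks they disagreed in 22.6% of the control list and 21.7% of the knockdown list. BOLA2 was the 1 member with no peak under its name or on its model.

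The sequences below show how alike the copies are where a sequence of both could be read. Only the first pair lies at a peak; the letters of both copies at the EIF3C, NOMO, RGPD and PI4KAP2 peaks were not read here. The first pair is a stretch inside the BOLA2B-labelled peaks and the same stretch of the other copy, both on the plus strand, with the letters GGACT in capitals. The second set is the hairpin of the microRNA gene under whose name peaks on EIF3C (MIR6862-2) and on EIF3CL (MIR6862-1) were listed, with mature arms in capitals, and the third is the hairpin that lies beyond the ends of NOMO1 (MIR3179-1) and NOMO3 (MIR3179-2). All are from RefSeq, build GRCh38.p14.
BOLA2B and SLX1A copy, chr16:30194351-30194380: aaggaccggccaGGACTgtgacagaggcgg
BOLA2 and SLX1B copy, chr16:29455009-29455038: aaggaccggccaGGACTgtgacagaggcgg
MIR6862-2, chr16:28724252-28724321, plus strand: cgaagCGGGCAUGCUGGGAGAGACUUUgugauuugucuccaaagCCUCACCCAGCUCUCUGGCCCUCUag
MIR6862-1, chr16:28390982-28391051, minus strand: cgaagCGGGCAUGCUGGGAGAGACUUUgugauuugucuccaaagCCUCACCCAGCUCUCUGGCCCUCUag
MIR3179-1, chr16:14901508-14901591, plus strand: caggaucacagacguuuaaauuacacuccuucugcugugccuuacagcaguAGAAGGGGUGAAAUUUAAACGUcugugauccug
MIR3179-2, chr16:16300159-16300242, plus strand: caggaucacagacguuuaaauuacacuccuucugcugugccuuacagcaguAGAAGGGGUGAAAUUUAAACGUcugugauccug
Each pair was identical in every letter. The mature arms of mir-6862, with the seed (bases 2 to 8) in capitals, are:
hsa-miR-6862-5p: cGGGCAUGcugggagagacuuu
hsa-miR-6862-3p: cCUCACCCagcucucuggcccucu

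BOLA2 and BOLA2B encode the same small protein, which works with glutaredoxin in handling iron-sulfur clusters in the cytosol. Each copy lies head to head with a copy of SLX1, a subunit of a structure-specific nuclease: BOLA2B on the minus strand beside SLX1A on the plus strand, and BOLA2 beside SLX1B. Every peak over BOLA2, BOLA2B, SLX1A or SLX1B was on the BOLA2B and SLX1A copy. Farther along the other copy, at its SULT1A4 end, knockdown peaks stood at 21.8-fold and 14.6-fold on the SLX1B-SULT1A4 model (chr16:29464275-29464546 and chr16:29464784-29464844) and at 22.6-fold and 15.4-fold on the overlapping SULT1A4 model. At the SULT1A3 end of the BOLA2B and SLX1A copy, peaks were in the control list. They stood at 12.2-fold on the SLX1A-SULT1A3 model (chr16:30200803-30202811) and at 13.7-fold on the overlapping SULT1A3 model (chr16:30200916-30201124). Of 5 peaks listed as BOLA2B, 1 was called on the BOLA2B model and 4 on SLX1A or on the read-through gene SLX1A-SULT1A3, which runs the other way. None of the 6 peaks under the BOLA2B name or model overlapped the RefSeq span of BOLA2B (chr16:30192932-30193666), and all lay within SLX1A.

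The strongest of these peaks covered the 5′ exons of SLX1A (exon 1 or 2 of 6 in the file's annotation). On the SLX1A model, fold enrichment of IP over input, the authors' own value per peak throughout, was 27.5 in controls (chr16:30194292-30194770) and 40.4 after knockdown (chr16:30194203-30195042). On the overlapping SLX1A-SULT1A3 model it was 34.4 in controls and 43.7 after knockdown. These overlapping peaks share their reads and are not independent. The log10 of the peak p was -10.8 and -10.6 in controls and -124 on both models after knockdown. The control peaks were above 97.6% and 98.8% of the control list in fold enrichment. A peak on the BOLA2B model itself (chr16:30194217-30194306, 5′ UTR, 8.89-fold) was listed after knockdown, as was a peak on the BOLA2B model listed under SLX1A (chr16:30193950-30194128, 15.4-fold).

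Promoter windows of the RefSeq table, 4 on this copy and 5 on the other, gave 632 positions that could be read in both copies, which lie 739342 bp apart. All 632 carried the same base. Of these positions, 202 lay inside a control peak and 280 inside a knockdown peak of the BOLA2B and SLX1A copy. No peak of either list had a span over the windows of BOLA2 and SLX1B. The search for GGACT, a common form of the m6A consensus, on both strands of the 632 positions gave 4 matches, and the plus-strand match printed above was the 1 inside a peak. GGACT stood on the gene's strand in 25.3% and on either strand in 44.2% of 35116 promoter windows of 300 bp.

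The authors' deposited table of differential peaks gives its log2 changes with the opposite sign, and labels a row with a negative value down. They were turned to knockdown over control, because 93.1% of 3748 rows with 1 peak in each list had a sign opposite to the change in fold enrichment from control to knockdown. Of the 13 member rows, 12 carry the label down and are higher after knockdown as turned. BOLA2B had 3 rows in the authors' deposited table. A row at chr16:30192932-30193229, in the 3′ UTR and within the RefSeq span of BOLA2B, had a log2 change of 6.59, the largest by size of 8687 rows with a gene name. Rows at chr16:30194263-30195042 and chr16:30194251-30194910 had log2 changes of 1.74 and 1.70 and lay on the SLX1A side. The row with the change of 6.59 overlapped no peak of either list, and the other two overlapped peaks in both. BOLA2 had no row.

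**Figure D1:**
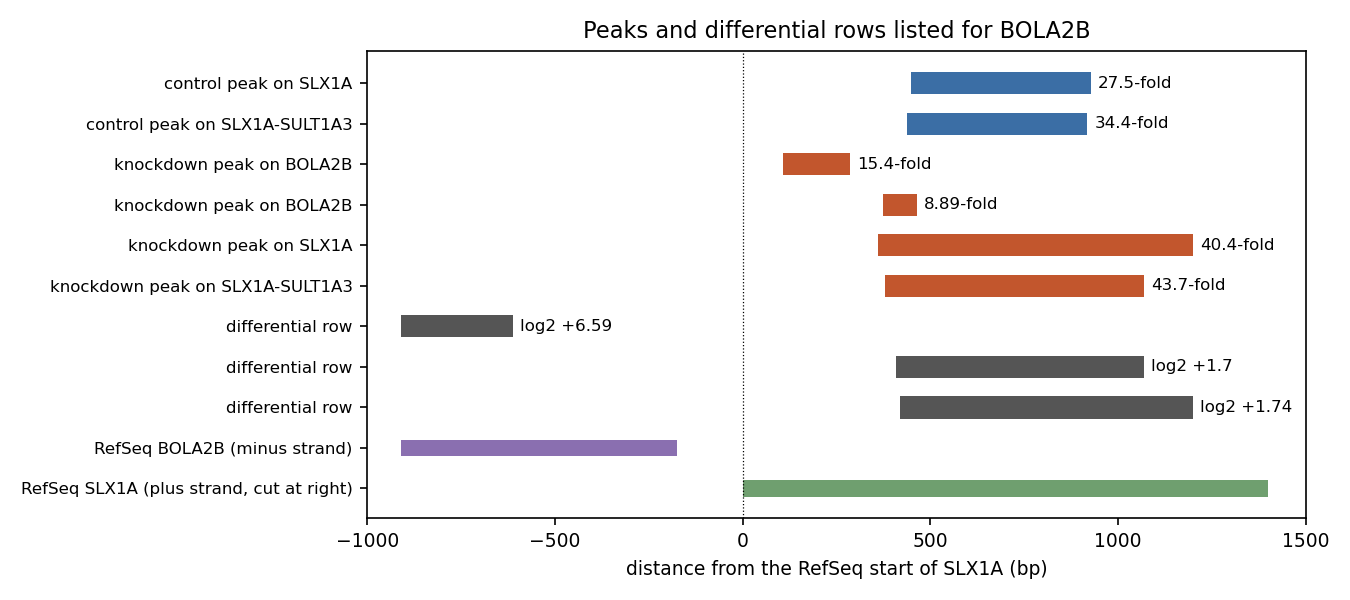
Peaks (blue, control; orange, knockdown) and differential rows (grey) listed for BOLA2B, drawn by distance in bp from the RefSeq start of SLX1A, with the fold enrichment or log2 change of each. The peaks lie on the SLX1A side and the row with a log2 change of 6.59 lies alone over BOLA2B.

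EIF3C encodes a core subunit of eIF3, the complex that helps the small ribosomal subunit bind messenger RNA and start translation, and EIF3CL is a near-identical copy. Both carried peaks in both lists, and fold enrichment was higher after knockdown in each of the 3 overlapping pairs of peaks. The peak over exon 7 of 21 of EIF3C (chr16:28714856-28720687, 3 exonic blocks) stood at 12.2-fold in controls and 23.6-fold after knockdown. A peak called on EIF3C at chr16:28723128-28724411 stood at 13.2-fold and 28.4-fold, with a log10 p of -1120 and -2410. A peak called on EIF3CL from chr16:28391776 stood at 7.20-fold in controls (to 28392109) and 17.8-fold after knockdown (to 28399927), with a log10 p of -9.53 and -26.2. An additional weak peak on EIF3C (chr16:28714077-28714389, 2.96-fold) was listed after knockdown. Each condition had a single list, so these ratios have no replicate error. Over all peaks, median fold enrichment was also higher after knockdown, at 7.05 against 6.11 in controls.

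Measured from the 5′ end of each copy's own mir-6862 hairpin, along the gene, the control peak of EIF3CL lay within that of EIF3C over the same pair of exons. The EIF3C blocks ran from -1124 to -929 and from -804 to -701 bp in both lists. Those of EIF3CL ran from -1058 to -929 and from -804 to -725 bp in controls, and the first began at -1091 bp after knockdown. The shared ends at -929 and -804 bp bound an intron of the gene models, so they would be shared by any peaks on these exons, and the outer ends differed. The EIF3C peak had a further block from 70 to 159 bp, beginning at the base after the 70-base hairpin, and the EIF3CL knockdown peak had one from -8876 to -8820 bp. The files listed these peaks as MIR6862-2 and MIR6862-1 and as miRNA transcripts, yet no block overlapped either hairpin. The input FPKM listed for the microRNA genes was the same number for both in 4 of 6 libraries (0.611 FPKM in control replicate 1, for example).

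**Figure D2:**
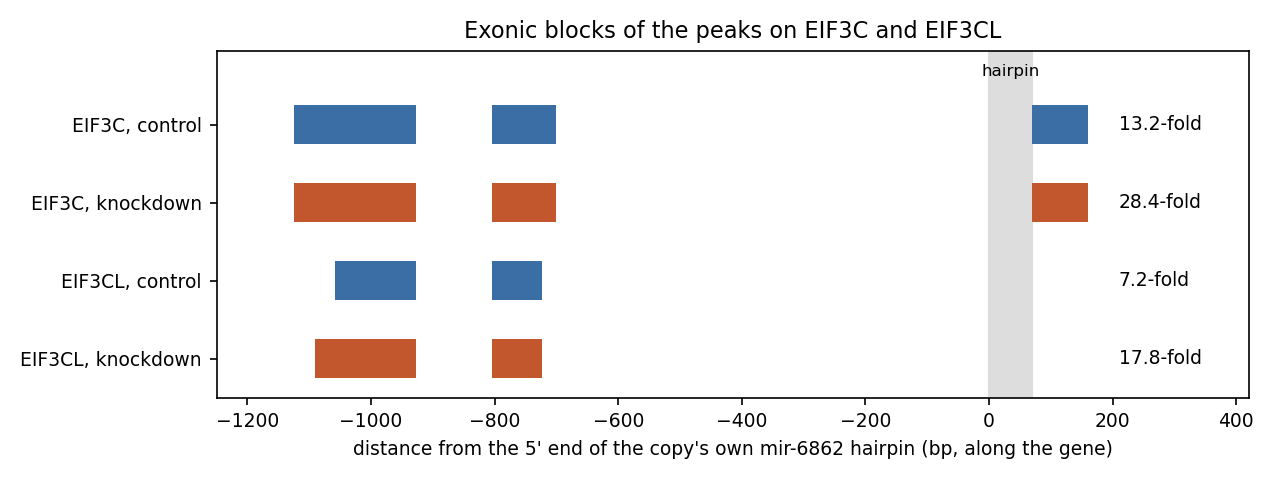
Exonic blocks of the peaks called on EIF3C and EIF3CL (blue, control; orange, knockdown) by distance in bp from the 5′ end of each copy's mir-6862 hairpin (grey), with the fold enrichment of the whole peak. Blocks of both copies cover the same pair of exons, which end at -929 and begin at -804 bp, with other outer ends, and none enters the hairpin; a further EIF3CL knockdown block at -8876 to -8820 bp is not drawn.

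Rows of the authors' deposited table for these copies went both ways. EIF3C had a log2 change of 0.498 over the exon 7 peak and of -4.71 at chr16:28732058-28734625 (exon 16 of 21). The latter was the 13th of 8687 by size and overlapped no peak of either list. Rows listed under MIR6862-2 and MIR6862-1 had log2 changes of 1.29 on EIF3C and 1.20 on EIF3CL. Over the exons where the peaks of both copies lie, both were thus higher after knockdown, and the opposite sign was within EIF3C, at another exon.

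NOMO1, NOMO2 and NOMO3 encode proteins of the endoplasmic reticulum membrane that bind nicalin (NCLN) and act beside the translocon in making multipass membrane proteins. NOMO1 and NOMO3 each had a 3′ UTR peak. The NOMO1 peak, listed under AC136443, a long non-coding RNA, stood at 7.05-fold in controls (chr16:14895529-14895888) and 7.94-fold after knockdown (chr16:14895076-14895888), with a log10 p of -489 and -659. The NOMO3 peak (chr16:16294242-16294511) stood at 3.05-fold and 2.56-fold, with a log10 p of -3.71 and -3.55. Counted from the MIR3179 hairpin beyond each gene, the NOMO3 peak ran from -5917 to -5648 bp and the control NOMO1 peak from -5979 to -5620 bp, so by that measure the NOMO3 peak lay within the NOMO1 interval, with a lower fold and a weaker p. NOMO2 had a 5′ UTR peak, at 3.58-fold in controls (chr16:18561941-18562181) and 4.61-fold after knockdown (chr16:18561911-18562121), and none at the 3′ end.

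All 4 NOMO rows of the authors' deposited table were higher after knockdown. In the peak lists, by contrast, fold enrichment at the 3′ UTR was higher after knockdown for NOMO1 and lower for NOMO3, a difference with no replicates and no test. NOMO3 had a log2 change of 4.06 at exon 5 of 31 (chr16:16245158-16247149). NOMO2 had 3.87 at chr16:18424765-18429087 and 1.08 at its 5′ UTR peak. The row on the NOMO1 model, listed under AC136443, had 0.294 over the 3′ UTR peak. The NOMO2 row with 3.87 was labelled 3′ UTR but lay outside the RefSeq span of NOMO2 (chr16:18499927-18562112) and inside another protein-coding gene, LOC102723728. That row and the NOMO3 row overlapped no peak of either list.

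RGPD1 and RGPD2 are duplicates that carry domains of RANBP2, the nucleoporin that binds the GTPase RAN and acts as a SUMO ligase. RGPD1 had 4 control peaks and no knockdown peak, and RGPD2 had 4 control peaks and 2 knockdown peaks. The RGPD1 control peaks, between chr2:86985822 and 86994901, stood at 11.5, 6.11, 6.11 and 9.93-fold, with a log10 p of -2.82 to -1.32. Each peak of the pair at 6.11-fold shared both fold and p exactly with 908 other control peaks, its partner among them, and had a log10 adjusted p of -0.436. The strongest RGPD2 peak, at exon 20 of 23, stood at 13.2-fold in controls (chr2:87782658-87783378, log10 p -103) and 8.37-fold after knockdown (chr2:87782868-87783138, log10 p -61.6). A neighbouring peak stood at 13.7-fold (chr2:87783887-87784097) and 10.5-fold (chr2:87783947-87784067). Control peaks at 4.58-fold (chr2:87775018-87782388) and 19.9-fold (chr2:87794132-87795205) had no knockdown counterpart. The largest RANBP2 peak by length stood at 9.50-fold in controls (chr2:108764503-108771835), and knockdown peaks within that span stood at 9.1, 9.14, 5.58 and 10.1-fold. RGPD3 (7.64-fold) and RGPD8 (16 and 9.93-fold) also had peaks in controls alone, with a log10 p of -4.17 to -2.38. RGPD5 had a peak in both lists, at 14.5-fold in controls and 13.7-fold after knockdown.

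In the authors' deposited table RGPD1 had 1 row, with a log2 change of 4.78 (chr2:86977643-86977703, 3′ UTR of a nonsense-mediated decay transcript). It was the 11th of 8687 by size and overlapped no peak. RGPD1 was thus higher after knockdown in this row, while its listed peaks were all in the control list. RGPD2, whose fold enrichment was lower after knockdown in both pairs, had no row. RANBP2 and the other RGPD genes examined had no row under their own names. Rows on their models but listed under another gene were not searched for, and some peaks on the RANBP2 model were listed under CCDC138.

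PI4KAP2 is a transcribed pseudogene of PI4KA, which encodes the kinase that makes phosphatidylinositol 4-phosphate at the plasma membrane. Its peak at exon 1 of 3 stood at 16-fold in controls (chr22:21476903-21477172) and 3.77-fold after knockdown (chr22:21477022-21477142), with a log10 p of -4.17 and -3.68. The 16-fold peak shared both fold and p exactly with 86 other control peaks. A second peak, at exon 9 of 9 (chr22:21473209-21473299, 18.6-fold, log10 p -4.87), was listed after knockdown alone, and 61 other knockdown peaks had the same fold and p. The row of the authors' deposited table lay over that second site (chr22:21473149-21473299), with a log2 change of 3.49 and an adjusted p of 0.0741, above 0.05. The parent gene PI4KA had a row of the opposite sign at its own 3′ UTR (chr22:20707691-20708020, log2 change -0.561), where fold enrichment was 6.35 in controls and 3.89 after knockdown. The genes were not aligned here, and the difference was not tested. PI4KAP1, another pseudogene, had control peaks at 5.09-fold and 4.58-fold and no knockdown peak.

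Across the members, 11 of 17 control peaks shared exonic sequence (1 bp or more) with a knockdown peak, against 58.2% of all control peaks, and 12 of 15 knockdown peaks overlapped a control peak, against 89.0% of all knockdown peaks. On the same gene model there were 11 overlapping pairs, 7 with higher and 4 with lower fold enrichment after knockdown. The 4 lower were both RGPD2 pairs, NOMO3 and PI4KAP2. These counts hold the same site called on SLX1A and on SLX1A-SULT1A3, whose peaks share their reads and are not independent. The share of higher pairs over the whole lists was not counted. Median fold enrichment over all peaks was 6.11 in the control list and 7.05 in the knockdown list, so nothing is read from the split of pairs. Of the 32 peaks, 11 shared their exact fold and p with 10 or more other peaks of the same list. The share of all peaks with such ties was not counted, so this is not read as a trait of the members.

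**Figure D3:**
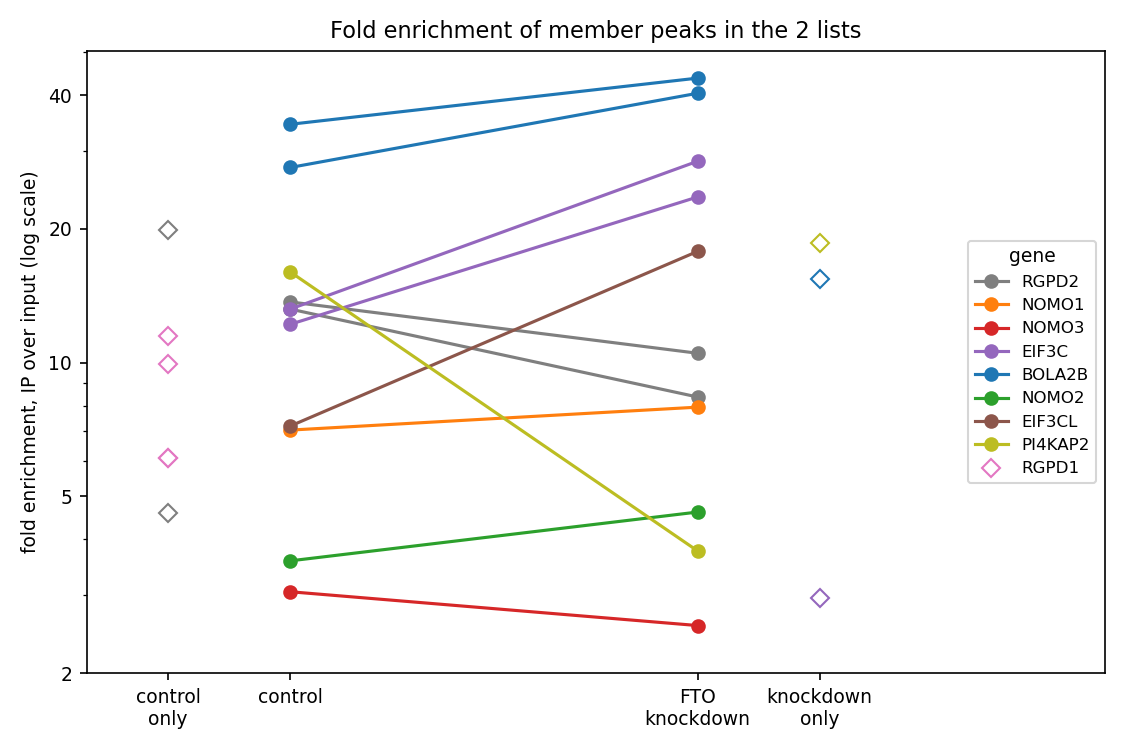
Fold enrichment (IP over input, log axis) of member peaks in the control and knockdown lists: lines join the 11 overlapping pairs on the same gene model, and open diamonds are peaks with no overlap in the other list. EIF3C and EIF3CL lines go up and those of RGPD2, NOMO3 and PI4KAP2 go down.

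Of the 10 rows listed under a member's name in the authors' deposited table, 9 were higher after knockdown, against 55.4% of 8687 rows. The set was chosen by large values among these rows, and nothing is read from that count. The rows split by size. With the 3 rows listed under another gene added, 7 rows had a log2 change of 1.74 or less in size, and all 7 overlapped a peak in both lists. The BOLA2B rows of 1.74 and 1.70 among them overlap each other and are not independent. The other 6 rows had a size of 3.49 or more. Of these 6, 5 overlapped no peak of either list, and the sixth, PI4KAP2, overlapped a knockdown peak. Over all rows with a gene name, 2.91% overlapped no peak of either list, and of the 126 rows with a size of 3 or more, 13.5% did.

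**Figure D4:**
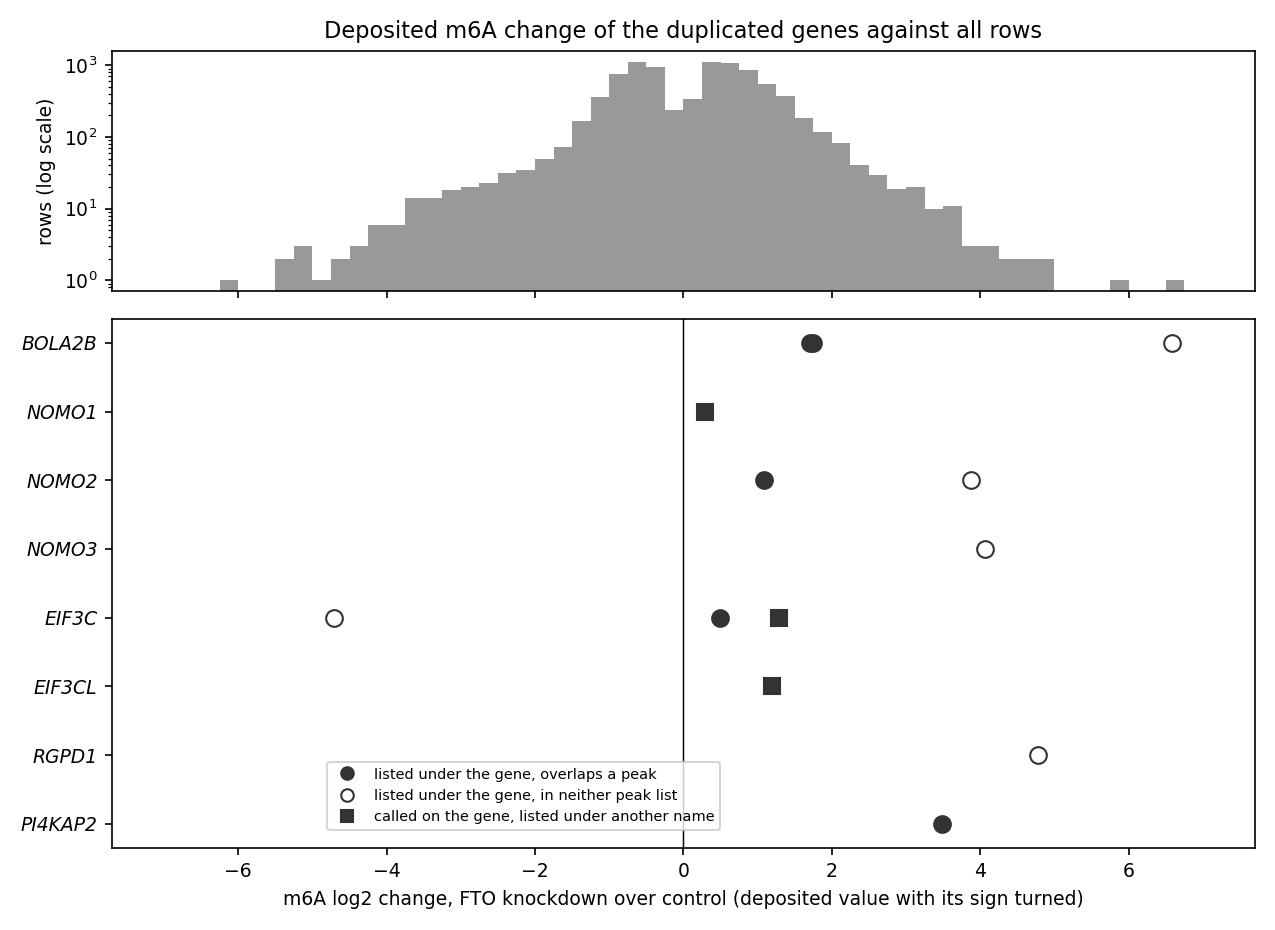
Top, number of deposited differential rows (log axis) by m6A log2 change, knockdown over control. Bottom, the 13 member rows: filled symbols overlap a peak of at least 1 list, open circles overlap none, and squares were called on the member and listed under another gene. Open circles have a size of 3.87 or more and filled ones, PI4KAP2 apart, of 1.74 or less.

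Input RNA levels were listed for 6 of the 10 members. In order of control level they were EIF3C, NOMO2, NOMO3, BOLA2B, RGPD1 and PI4KAP2, and values of neighbours in that order did not overlap in the controls. After knockdown the last pair changed places, with RGPD1 at 1.11 to 1.25 FPKM and PI4KAP2 at 1.3 to 1.49 FPKM. Since copies share reads, each level may hold reads of its copy. The tests below ran on log2(FPKM + 1), which understates the change of low genes.

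RGPD1 stood at 2.22, 2.42 and 2.01 FPKM in controls and at 1.25, 1.11 and 1.25 FPKM after knockdown. All knockdown libraries were below all controls, with means of 2.21 ± 0.205 and 1.20 ± 0.0809 FPKM (SD, n = 3 per group). The log2 change was -0.55 (SE 0.0645) with a pseudocount of 1 FPKM and -0.83 with a pseudocount of 0.1 FPKM. In bulk samples, fewer cells with the transcript and less RNA per cell cannot be told apart. EIF3C stood at 67.1, 68.96 and 74.1 FPKM in controls and at 62.2, 63.4 and 64.9 FPKM after knockdown. The groups did not overlap, and the log2 change was -0.14 (SE 0.0467).

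NOMO3 stood at 24.8, 24.2 and 25.5 FPKM in controls and at 26.1, 26.3 and 27.2 FPKM after knockdown. Its log2 change was 0.09 (SE 0.039). PI4KAP2 stood at 1.04, 1.24 and 1.12 FPKM in controls and at 1.3, 1.49 and 1.32 FPKM after knockdown. Its log2 change was 0.15 (SE 0.0624). In both genes all knockdown libraries were above all controls. NOMO2 stood at 54.4, 54.9 and 58.5 FPKM in controls and at 57.9, 54.5 and 58.4 FPKM after knockdown, and BOLA2B at 7.78, 8.05 and 8.19 FPKM and at 7.94, 7.98 and 8.20 FPKM. Their groups overlapped, with log2 changes of 0.02 (SE 0.046) and 0.01 (SE 0.0401).

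With limma and Benjamini-Hochberg adjustment over 4515 genes at a threshold of 0.05, 2 of the 6 members were called, RGPD1 and EIF3C, both lower, against 62.4% of all genes tested. In 4 of the 6 members all knockdown values lay on 1 side of all control values, against 67.8% of all genes tested. Neither share exceeded the background. The EIF3C call was lost without control replicate 2 and without any 1 of the knockdown libraries, with log2 changes of -0.15 to -0.12, about the same size, and after median centring, where its log2 change was -0.05. RGPD1 kept its call in every alternative that tested it.

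**Figure D5:**
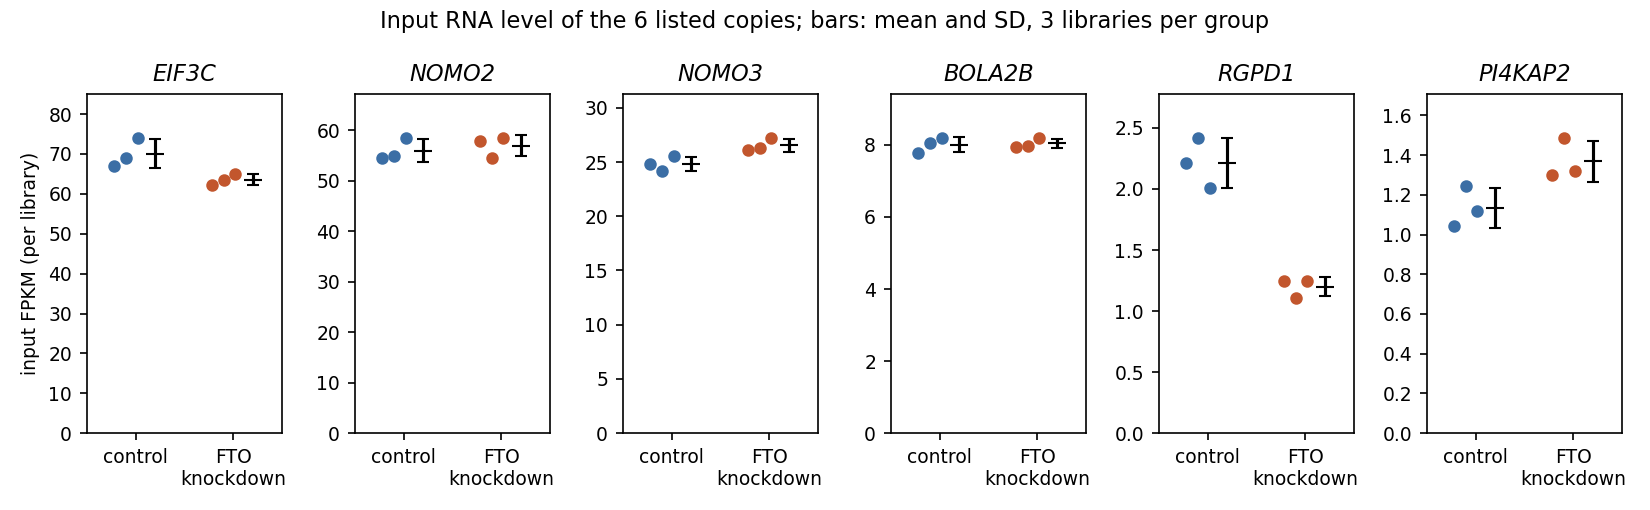
Input FPKM of the 6 listed members in each of the 3 control (blue) and 3 knockdown (orange) libraries, each gene on its own axis from 0, with the mean and SD beside the points. RGPD1 falls from 2.01 to 2.42 FPKM in controls to 1.11 to 1.25 FPKM after knockdown, and BOLA2B and NOMO2 overlap between groups.

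The genes with the most similar course over the 6 input libraries, by Pearson r of log2(FPKM + 1) among genes of at least 1 FPKM, were NT5C for BOLA2B (r = 0.998), GPR137 for NOMO2 (r = 0.958), ZNF787 for NOMO3 (r = 0.99), EXD2 for RGPD1 (r = 0.998), LOXL2 for EIF3C (r = 0.996) and TNK1 for PI4KAP2 (r = 0.989). Each is the best match among the 4515 genes over 6 libraries that fall into 2 conditions, and no test is given.

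Genes that work with the members were described from lists, by limma with the same adjustment. Levels exist only for genes with a differential m6A row, and 62.4% of all genes tested were called (1107 higher, 1712 lower), so nothing is read from a list's count. Of 18 genes of iron-sulfur handling 6 were tested, of which IBA57 and NUBP1 rose and NFU1, a carrier that delivers clusters to mitochondrial enzymes, fell from 6.77 to 4.65 FPKM (log2 change -0.46, SE 0.0782). Their 7 differential m6A rows split into 4 higher and 3 lower, with -0.271 for GLRX5 and -1.02 for CIAO1, a component of the cytosolic assembly machinery. Of 15 NOMO partners, 2 were tested: NCLN rose from 26.6 to 42.1 FPKM (log2 change 0.64, SE 0.0582) with an m6A row at 0.965, and SEC61A1, the pore of the translocon, fell from 69.8 to 63.1 FPKM with an m6A row at -0.154. The SEC61A1 call was lost after median centring.

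Of 12 eIF3 subunits 5 were tested. EIF3B rose from 20.2 to 25.6 FPKM (log2 change 0.32, SE 0.0398), and EIF3E, EIF3H and EIF3L fell, EIF3E most, from 24.6 to 18.2 FPKM (log2 change -0.42, SE 0.0672). Their 7 m6A rows split into 3 higher and 4 lower, with 1.17 for EIF3B and -0.588 for EIF3H. Of the nuclear pore and RAN list 3 of 20 symbols were tested and these 3 rose: RCC1, the exchange factor of RAN, from 17.8 to 23.6 FPKM, NUP62 from 15.1 to 18.2 FPKM and RAN from 36.4 to 40.9 FPKM. The m6A rows with the smallest p were 0.237 for NUP62 and -0.512 for RAN. Of the PI4KA complex, PI4KA rose from 7.19 to 7.95 FPKM (log2 change 0.13, SE 0.0386), TTC7A, its scaffold, fell from 4.26 to 3.77 FPKM, a call lost after quantile normalization and after median centring, and EFR3B, its membrane anchor, stood at 3.54 and 3.401 FPKM with an m6A row at 1.17.

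Other duplicated families gave a comparison for the direction of copies. Of 35 families, 16 had a row in the authors' deposited table, 6 had rows on more than 1 copy, and in 4 of those 6 at least 1 copy had a row of the opposite sign to another copy. Rows at any position were counted there, by the listed gene name alone. By that measure EIF3CL had no row. With the row called on EIF3CL at 1.20 but listed under MIR6862-1 added, it and the EIF3C row at -4.71 would be opposite too. SMG1, a kinase of nonsense-mediated decay, had a log2 change of -0.605 and its pseudogene SMG1P3 had 2.24. SRGAP2 had 0.898 and -1.10, beside 1.27 for SRGAP2B and 0.891 for SRGAP2C. In the tubulin pair, TUBA1C had -1.47 and TUBA1A 0.157. NBPF15 had 1.07, NBPF14 had 0.802 and -0.714, and NBPF3, NBPF9, NBPF12 and NBPF26 had values between -0.905 and -0.445. The list called other duplicated genes also held genes outside the 35 families, and how alike those are to any copy was not read here. PKD1 and CHMP1A, both outside the families, had the smallest p of that list, with log2 changes of 0.701 and 1.55. Of the 31 such genes tested in the input, 7 rose and 14 fell, beside 62.4% called among all genes. After median centring 12 rose and 10 fell, so no direction is given for these genes.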

How the data were processed

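The members, gene lists and families were chosen with earlier results of these data known. Per the submitters' processing notes the tools included HISAT2 2.0, StringTie 1.3.0 and Bowtie 0.12.2, with no role stated, and a peak caller is not given in the sources used here. The notes name build mm8, but identifiers were human, and of 24159 transcripts matched to RefSeq (GRCh38.p14) by symbol 99.1% overlapped that gene's span, so positions were read as GRCh38. File starts count from 0 (block lengths equal end minus start), and 1 was added.

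Per the file headers, the deposited values were FPKM per input library, a log2 fold change of m6A per differential row, a ratio of IP over input (fold enrichment) per peak, and, as scores, log10 p and adjusted p-values. The m6A log2 was control over knockdown (Spearman rho of -0.864 against the log2 of the ratio of fold enrichments, knockdown to control, in 3748 rows) and was turned. Each condition had 1 deposited peak list. Of the rows, 283 without a gene name were left out, as were 3 repeated knockdown peaks.

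Genes averaging 1 FPKM or more in the inputs were tested as log2(FPKM + 1) with limma 3.58.1 (R 4.3.3; empirical Bayes with trend, two-sided, Benjamini-Hochberg, threshold 0.05), after a run on simulated data. Overlaps used bedtools 2.31.1 on exonic blocks; a differential row was compared by its whole span. Of the 10 members, 5 had a window in the RefSeq promoter table. Named genes were all members, their closest relatives with rows, the 2 genes per list with the smallest p of a row, families with copies of opposite sign, and the gene of highest r per member; further genes are named as those of a list that passed the test. Alternatives changed the pseudocount, filter, scaling, replicate block, libraries and peak thresholds.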

Additional observations from a re-analysis of the deposited data

How the results depend on the processing

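Both expression counts moved by over 1.5 times with a filter of at least 5 FPKM, which tests fewer genes: 1603 of 2390 genes called in place of 2819 of 4515, and 1 of 4 members in place of 2 of 6. The share of called genes that were higher was 39.3% as deposited, 52.5% after quantile normalization, 55.4% after median centring and 51.8% at 5 FPKM. Leaving out 1 library gave 2413 to 3005 calls, and 1 to 3 among members; the member count was 1 without control replicate 2 or any 1 knockdown library and 3 without control replicate 3, where NOMO3 (0.11) passed. NOMO3 also passed with no filter and after median centring (0.18), and its change was smaller, 0.03 and uncalled, after quantile normalization, while PI4KAP2 passed after quantile normalization (0.34) and median centring (0.24). The causes were not tested. With the replicate number as a block, 2747 genes and 2 members were called. Deviations of same-numbered libraries had correlations of -0.0769, 0.0278 and 0.0247, so the numbers were not taken as pairs. NOMO2 changed sign after quantile normalization (-0.03), uncalled in both fits. The overlap of member control peaks was 11 of 17, 9 of 17 with a reciprocal overlap of 50%, 11 of 17 over whole spans, 8 of 15 at a fold of at least 4 and 8 of 8 at an adjusted p of at most 1e-05, where weak peaks are left out; the count of member rows higher after knockdown was between 6 and 12, the last with the rows listed under another gene added, an alternative chosen after seeing the data. Depth was unknown, so counting error could not be given.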
